A study of Mus musculus with 8 samples.

Results

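The enzyme families that oxidise, split or conjugate foreign and endogenous small molecules were followed through single cells sorted from mouse intestinal organoids. Members were every gene row whose symbol starts with Cyp and a digit, with Gst and the letter of a cytosolic or kappa class (a, m, p, t, k, o or z), with Fmo, Ugt, Ces or Adh and a digit, or with Aldh, pseudogene symbols left out. This rule took 172 of 20726 gene rows: 85 Cyp, 21 Gst, 20 Aldh, 18 Ugt, 16 Ces, 7 Fmo and 5 Adh genes. Of these, 135 were listed both in files of the Gcg or Gip line and in files of the Tac1 line and could be compared, 32 appeared only in files of the Gcg and Gip lines, and 5 only in files of the Tac1 line. Transcripts were seen for 171 of the 172, and 73 were abundant enough to be tested in at least 1 comparison.

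Cytochrome P450 enzymes (Cyp) and flavin monooxygenases (Fmo) insert oxygen into lipophilic compounds, carboxylesterases (Ces) split esters, and alcohol and aldehyde dehydrogenases (Adh, Aldh) carry alcohols on to aldehydes and acids. Glutathione S-transferases (Gst) and UDP-glucuronosyltransferases (Ugt) then attach a water-soluble group, which prepares the product for export. In the gut these enzymes are best known from absorptive enterocytes, which meet dietary compounds first, while several Cyp and Aldh enzymes also process retinoids, fatty acids and sterols in many cell types.

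Cells came from C57BL/6 mouse organoids of 3 reporter lines, named in the labels as Gcg-Venus, Gip-Cre and Tac1-Cre, and single live cells positive for the reporter were put into 384-well plates. Gcg encodes proglucagon, Gip the incretin hormone of K cells and Tac1 the precursor of substance P, and a Cre-driven label can persist in a cell that no longer transcribes the gene. Organoids had received BMP4 for 4 days, BMP4 for 24 h or no BMP4, and 5 plates (2 Gcg, 1 Gip, 2 Tac1) carried all 3 conditions in separate blocks of columns, so the position on the plate and the condition cannot be told apart. A further 24 h plate and 2 further 4 day plates, all of the Tac1 line, held 1 condition each. The plate was the replicate throughout, and nothing in the labels ties a plate to a separate culture or animal. Between lines, the p-values therefore measure only how plates differ from each other. Between conditions or classes, where plate was a block, they measure only how the difference varies from plate to plate. Either spread may be technical.

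Of 3072 wells, 1006 held at least 2000 transcripts and were kept. The kept transcripts per plate ranged from 98166 to 2874187, with the Gcg and Gip plates deepest and the Tac1 plates shallowest. Wells were grouped by clustering in which the member genes, hormones and BMP target genes took no part, so that the enzymes did not define the classes. This gave 61 enterocyte-like, 888 enteroendocrine-like and 24 goblet-like wells, and 33 wells of the Tac1 line that stayed unnamed. Of the enterocyte-like wells, 57 lay on the 2 Gcg plates (33 and 24), 2 on the Gip plate and 2 on Tac1 plates, although every well had been sorted for a hormone reporter. Levels are given as CPM, counts scaled to a common total over the 16115 genes listed both for the Tac1 line and for the other lines. In enterocyte-like wells of Gcg plates 1 and 2 the 24 endocrine markers summed to 268 and 621 CPM, against 17023 and 19531 CPM in enteroendocrine-like wells. The listed enterocyte markers summed to 77248 and 52170 CPM, against 22982 and 24552 CPM. Reg1 was the enterocyte marker at 0 in both classes.

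The enzyme families were a major part of the transcriptome of enterocyte-like wells and a minor one of enteroendocrine-like wells. Members made up 9.37% and 9.79% of all transcripts in enterocyte-like wells of Gcg plates 1 and 2, against 0.562% and 0.494% in enteroendocrine-like wells of the same plates. Enteroendocrine-like wells of the other lines had similar shares, at 0.487% on the Gip plate and at 0.880% and 0.826% on Tac1 plates 1 and 2. Cell by cell, the share in enterocyte-like wells ran from 1.13% through a median of 8.47% to 15.4% on Gcg plate 1, and from 2.14% through 8.06% to 15.5% on Gcg plate 2. In enteroendocrine-like wells it ran from 0.117% through 0.522% to 1.44% on Gcg plate 1, and from 0.153% through 0.481% to 1.49% on Gcg plate 2. The classes thus overlapped only where a few enterocyte-like wells had low shares.

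**Figure D1:**
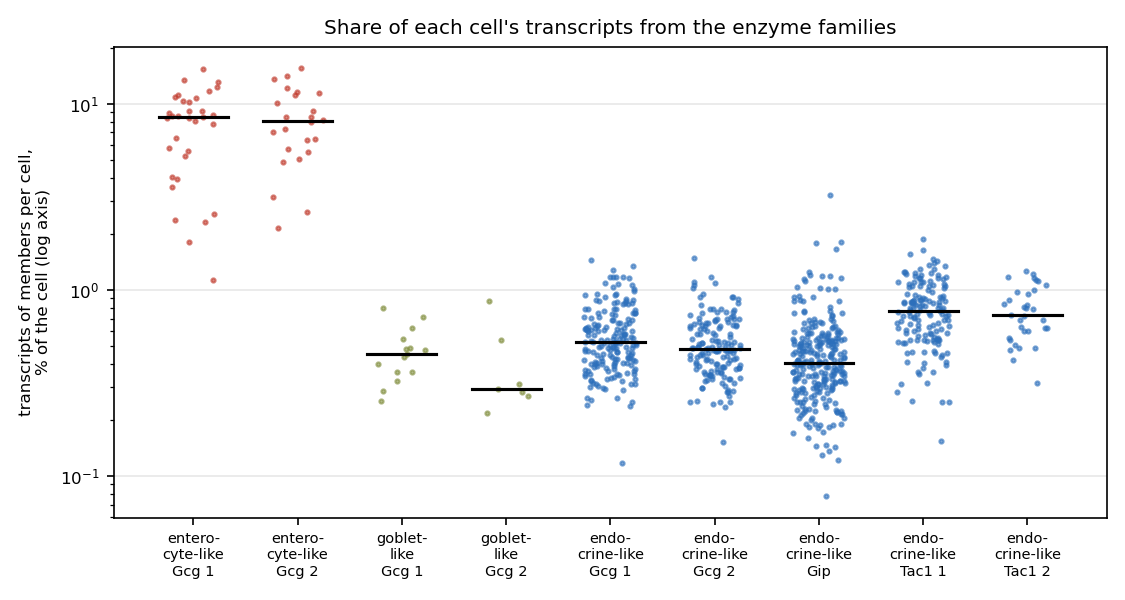
Share of each well's transcripts that came from the enzyme families (percent), by class and plate. Each point is 1 well and each bar a median: the enterocyte-like wells of both Gcg plates have medians of 8.47% and 8.06%, against 0.522% and 0.481% in enteroendocrine-like wells of these plates.

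Of 71 members tested between classes on the 2 Gcg plates, 59 were higher and 4 lower in enterocyte-like wells, and 8 did not pass. Across all 9344 genes tested, 49.2% passed, 24.1% as higher and 25.0% as lower (edgeR's quasi-likelihood test, adjusted p under 0.05, plate as a block). The median log2 difference over the 71 members was 4.06, against -0.12 over all genes. By family, 22 of 24 Cyp, 16 of 18 Gst, 9 of 14 Aldh, 6 of 6 Ces, 4 of 4 Ugt, 1 of 3 Adh and 1 of 2 Fmo genes were higher. Conditions were pooled within each class, and the test rests on 2 plates of 1 line.

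Per 10000 transcripts, the Cyp genes together reached 477 and 441 in enterocyte-like wells of Gcg plates 1 and 2, against 17.7 and 16.8 in enteroendocrine-like wells. The Gst genes reached 197 and 261, against 8.61 and 8.79, and the Ces genes 141 and 163, against 2.95 and 1.88. The Aldh genes stood at 71.9 and 72.6 against 6.62 and 6.76, the Ugt genes at 27.0 and 25.9 against 3.18 and 3.42, and the Fmo genes at 8.03 and 6.57 against 0.736 and 0.670. Adh was the exception: its 15.5 and 9.28 in enterocyte-like wells were close to the 16.4 and 11.1 of enteroendocrine-like wells. In enteroendocrine-like wells of the Tac1 line the Gst genes were the leading family, with 45.6 and 36.7 per 10000 on plates 1 and 2, while the Ugt genes had only 0.327 and 0.0884.

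**Figure D2:**
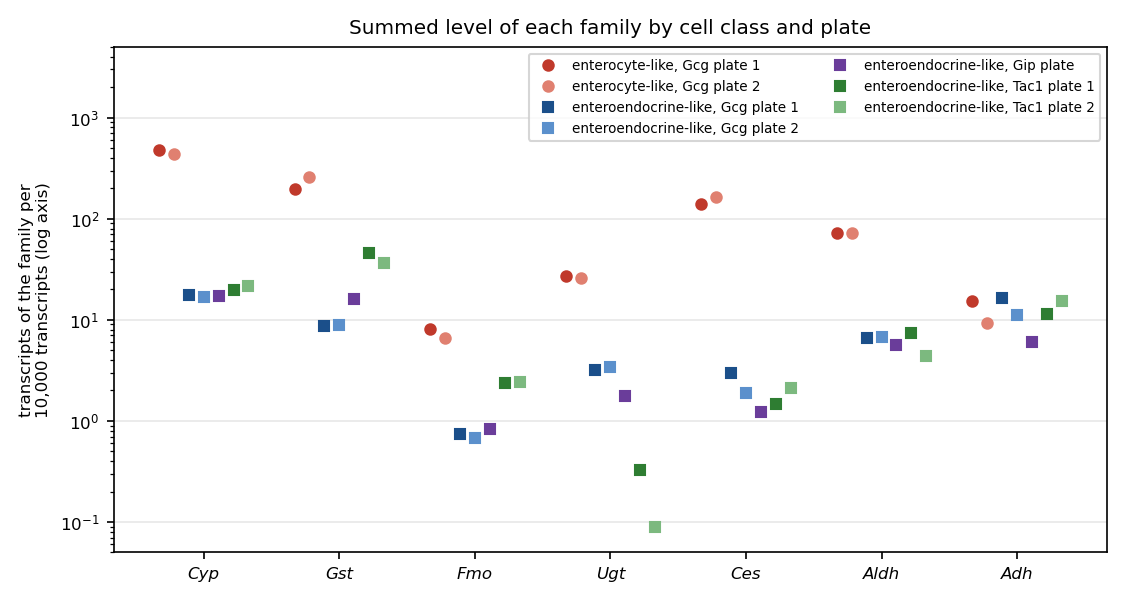
Transcripts per 10000 for each enzyme family, by class and plate. Enterocyte-like wells of the 2 Gcg plates lie above the enteroendocrine-like wells in every family but Adh, with Cyp at 477 and 441 against 17.7 and 16.8.

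Among the P450 enzymes, Cyp3a11, which oxidises a wide range of drugs and steroids, was the most abundant in enterocyte-like wells. It had 14897 and 11791 CPM there on Gcg plates 1 and 2, against 129 and 67.6 CPM in enteroendocrine-like wells (log2 difference 7.54 ± 0.51 SE, adjusted p = 2.2e-46). Cyp2c29, a P450 that oxidises arachidonic acid and drugs, had 10411 and 12412 CPM, against 107 and 90.4 CPM (7.25 ± 0.49, adjusted p = 5.3e-48). Neither gene's plates overlapped between the classes. Cyp2b10, the P450 classically induced through the nuclear receptor CAR, showed the largest log2 difference of the Cyp genes, 8.28 ± 0.36, with 2138 and 1911 CPM against 9.53 and 7.38 CPM. Cyp3a25 (7.90 ± 0.33) and Cyp3a13 (6.91 ± 0.37), both of the Cyp3a subfamily, were likewise higher, and Cyp3a13 had 4510 and 3448 CPM in enterocyte-like wells, against 49.8 and 37.5 CPM. Other P450 genes stood only a little above their enteroendocrine-like level: Cyp4b1 had 431 and 353 CPM against 252 and 307 CPM (0.90 ± 0.20), and Cyp51, the sterol 14-demethylase of cholesterol synthesis, 327 and 391 CPM against 123 and 119 CPM (1.95 ± 0.20). Cyp1a1, the best known target of the aryl hydrocarbon receptor, stayed low, at 23.5 and 65.2 CPM against 2.12 and 1.84 CPM (4.68 ± 0.66). Cyp2c68 and Cyp2j13 did not pass.

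**Figure D3:**
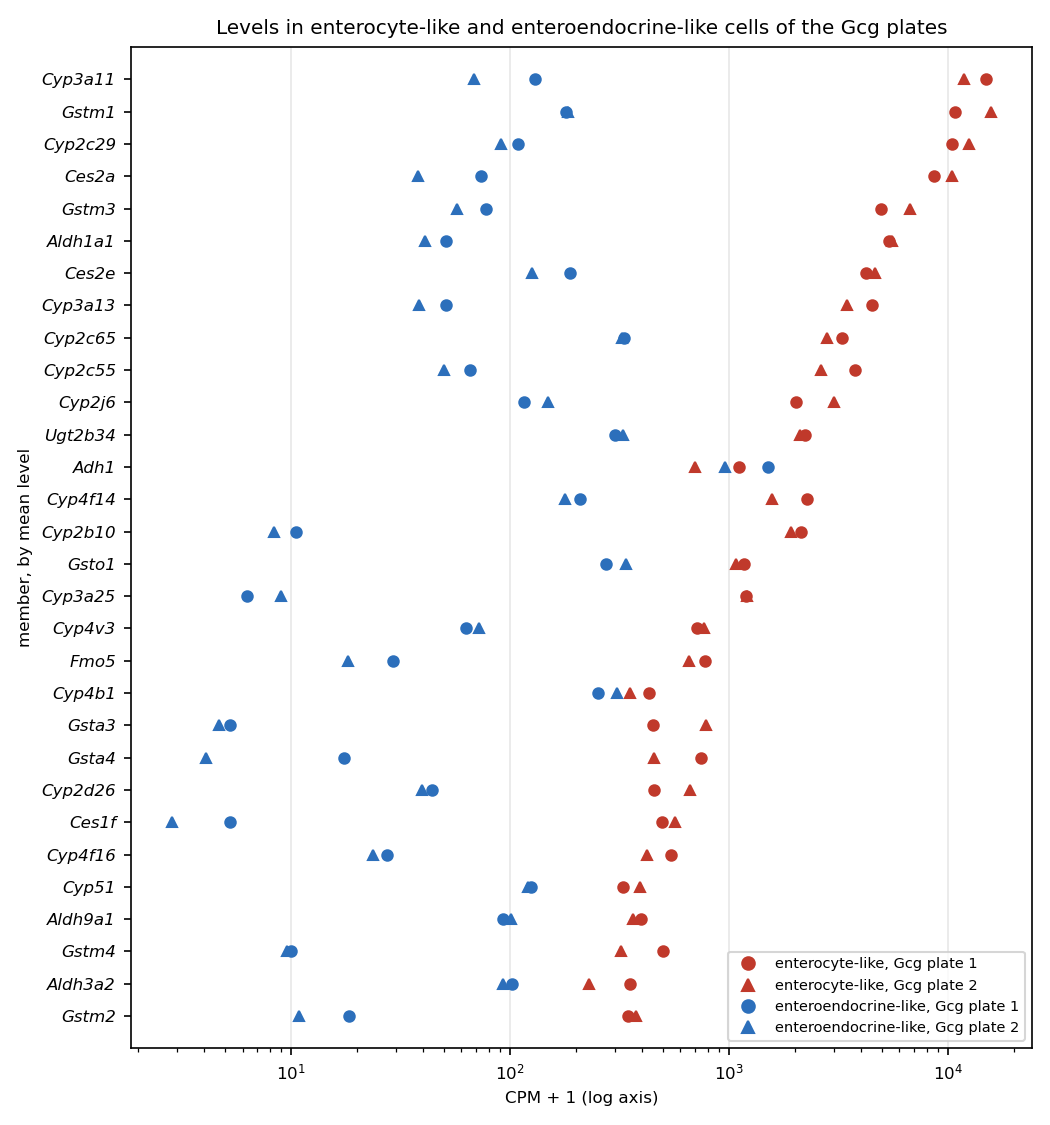
Level (CPM plus 1, log axis) of the 30 most abundant tested members in enterocyte-like and enteroendocrine-like wells, with 1 point for each of the 2 Gcg plates. Cyp3a11 has 14897 and 11791 CPM in enterocyte-like wells, against 129 and 67.6 CPM in enteroendocrine-like wells, while the Adh1 points of the classes lie side by side.

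The conjugating enzymes followed the same direction with fewer exceptions of size. Gstm1, a mu class transferase, had 10736 and 15720 CPM in enterocyte-like wells, against 179 and 184 CPM in enteroendocrine-like wells (6.56 ± 0.49, adjusted p = 2.9e-39), and Gstm3 had 4938 and 6678 CPM, against 76.8 and 55.9 CPM. The alpha class genes Gsta1, Gsta3 and Gsta4 were higher by 7.31 ± 0.58, 7.60 ± 0.31 and 6.35 ± 0.28 on the log2 scale. Gsta2 had 20 transcripts in enterocyte-like wells and 0 in enteroendocrine-like wells, at least 19.8-fold higher against a floor of 3 transcripts over the group. The 4 tested Ugt2b genes, of enzymes that glucuronidate steroids, bile acids and drugs, were higher, from Ugt2b34 (2224 and 2117 CPM against 302 and 328 CPM, 3.19 ± 0.26) to Ugt2b36 (82.1 and 135 CPM against 0 and 0.615 CPM, 8.48 ± 0.58). Gsto1, an omega class enzyme with thioltransferase activity, differed less, at 1167 and 1073 CPM against 273 and 337 CPM (2.29 ± 0.23). Gstz1 went the other way: this zeta class enzyme of tyrosine breakdown had 44.3 and 29.0 CPM against 128 and 147 CPM (-1.42 ± 0.26, adjusted p = 1.7e-07).

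Carboxylesterases set the classes apart almost completely. Ces2a had 8630 and 10481 CPM in enterocyte-like wells, against 72.5 and 36.9 CPM in enteroendocrine-like wells (7.87 ± 0.48, adjusted p = 2.0e-57), and Ces2e had 4240 and 4637 CPM, against 186 and 125 CPM (5.25 ± 0.35). The 4 tested genes of the Ces1 cluster were higher by 4.09 (Ces1d) to 7.75 (Ces1f) on the log2 scale. All 6 tested Ces genes therefore had enterocyte-like levels above those of both enteroendocrine-like sums.

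Besides Gstz1, the 3 members that were lower in enterocyte-like wells were dehydrogenases or a flavin monooxygenase. Aldh1a1, a cytosolic enzyme that makes retinoic acid, had 5376 and 5567 CPM in enterocyte-like wells, against 49.8 and 40.0 CPM in enteroendocrine-like wells (7.33 ± 0.41, adjusted p = 2.7e-69). Adh1, the class I alcohol dehydrogenase that also oxidises retinol, had 1115 and 701 CPM, against 1507 and 960 CPM, and its difference of -0.04 ± 0.23 did not pass (adjusted p = 0.90). On each plate its enterocyte-like CPM was the lower one. CPM are scaled by each sum's total alone, whereas the fitted differences also use TMM factors, so that small differences in CPM and in the fit can diverge, as they do for Adh1. Fmo1, a monooxygenase of nitrogen and sulphur compounds, was nearly absent from enterocyte-like wells, with 1 transcript against 154 in enteroendocrine-like wells (1.30 and 0 CPM against 40.2 and 48.0 CPM, adjusted p = 2.2e-09). Fmo5, which can also act on ketones, did the opposite, at 777 and 652 CPM against 28.1 and 17.2 CPM (5.38 ± 0.26). Aldh7a1, an enzyme of lysine breakdown, was lower at 9.12 and 9.66 CPM against 69.3 and 57.2 CPM (-2.38 ± 0.44), and Aldh18a1, which makes the precursor of proline, at 69.1 and 74.9 CPM against 113 and 168 CPM (-0.51 ± 0.23, adjusted p = 0.049). With finer clusters (resolution 2) Fmo1 (-0.28), Aldh7a1 (-0.73) and Aldh18a1 (0.11) did not pass, while Gstz1 did (-0.87). Aldh18a1 also missed the threshold by DESeq2, with DESeq2's size factors in edgeR and with no replicate block. The mitochondrial Aldh2, which clears acetaldehyde, was higher at 278 and 307 CPM against 86.8 and 55.3 CPM (2.43 ± 0.21).

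Many members are neighbours in the genome. By position in the mm10 assembly, 112 of them lie in 17 groups of at least 3 members. The tested genes of a group were mostly higher in enterocyte-like wells, as were 59 of all 71 tested members. Whether neighbours share a direction beyond that was not tested. The Gstm group on chromosome 3 (107895821 to 108044894) had 6 of 7 tested genes higher in enterocyte-like wells, with Gstm5 at -0.10 ± 0.35 as the exception. The 4 tested genes of the Ugt2b group on chromosome 5 (86889767 to 87490871) and the 4 of the Cyp2d group on chromosome 15 (82370527 to 82794294) were higher, and so were 4 of the 5 tested genes of the Cyp2c group on chromosome 19 (39007019 to 40187333). In the Fmo group on chromosome 1 (162793188 to 162984528) the only gene tested between the classes was Fmo1. For 39 members the last 300 bases match another gene over at least 100 bases at 95% identity or more, so that reads from the 3' end may have been split between them. Cyp3a11 shares such an end with Cyp3a41a and Cyp3a41b, and Gstm1 with Gstm2-ps1 and Gm8834, and their values are uncertain to that extent.

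Sequence upstream of 4 members is shown because these genes carry the main patterns: the most abundant enterocyte-like P450 genes (Cyp3a11, Cyp2c29), a P450 gene well above background in both classes (Cyp2c65) and a gene that differed between all 3 lines (Gstt1). The stretches are from RefSeq (GRCm38.p6), end before the start of the gene's transcript nearest to it, hold no annotated exon and are written 5' to 3' on the gene's strand. They cover chr5:145879965-145880104 (minus strand), chr19:39286835-39287073 (plus), chr19:39060756-39061005 (plus) and chr10:75797732-75797981 (minus). The stretches of Cyp2c29 and Gstt1 lie in introns of longer annotated transcripts of the same genes. Capitals mark letters that match 1 of 3 searched motifs.
Cyp3a11: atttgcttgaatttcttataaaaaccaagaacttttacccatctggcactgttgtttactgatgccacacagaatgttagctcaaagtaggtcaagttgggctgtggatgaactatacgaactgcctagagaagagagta
Cyp2c29: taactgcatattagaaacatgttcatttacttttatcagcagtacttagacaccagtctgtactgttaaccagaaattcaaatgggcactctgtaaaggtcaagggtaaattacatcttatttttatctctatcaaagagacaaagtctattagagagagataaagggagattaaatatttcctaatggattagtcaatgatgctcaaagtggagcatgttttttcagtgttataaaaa
Cyp2c65: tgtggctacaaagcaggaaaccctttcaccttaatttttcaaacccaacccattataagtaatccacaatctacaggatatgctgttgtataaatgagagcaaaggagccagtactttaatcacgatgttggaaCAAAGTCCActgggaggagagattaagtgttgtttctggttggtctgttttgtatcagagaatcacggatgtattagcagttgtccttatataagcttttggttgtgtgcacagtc
Gstt1: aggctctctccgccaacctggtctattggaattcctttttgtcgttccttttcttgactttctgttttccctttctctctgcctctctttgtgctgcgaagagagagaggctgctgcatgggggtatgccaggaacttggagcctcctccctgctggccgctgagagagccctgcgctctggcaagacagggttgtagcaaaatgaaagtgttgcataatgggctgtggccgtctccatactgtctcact

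Windows of 250 bases before the RefSeq start were found for 139 of the 172 members and for 27025 genes in all. The motif CAAAGTCCA, of the type bound by the nuclear receptor HNF4, was searched on both strands and was present in 7 member windows (5.04%) and in 103 of all windows (0.381%). In 6 of the 7 it lay before every annotated start that fell inside the window, and starts further upstream were not checked. These were Cyp2c65, 116 to 108 bases before the start, as capitalised above, and Cyp2c67, Cyp2c68, Cyp2c69, Cyp2c70 and Cyp3a16. The 5 Cyp2c genes are neighbours related by sequence, so they do not count as separate cases. Of the 52 windows of members higher in enterocyte-like wells, 2 held it (3.85%). The antioxidant response core TGACNNNGC was in 6 member windows (4.32%) and in 10.1% of all, and the xenobiotic response core GCGTG in 26 (18.7%) and in 28.2% of all. These are matches of letters and not measured binding sites.

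Low counts in enteroendocrine-like wells need a point of comparison, because free RNA in a suspension can enter any well. The 22 goblet-like wells of the Gcg plates, which held 257344 transcripts, served for it, since goblet cells make mucus and are not known for most of these drug-metabolising genes. Of 70 tested members with a transcript in either class, 18 stood higher in enteroendocrine-like than in goblet-like wells, 10 stood lower, and for 42 the exact binomial 95% interval of the ratio held 1, with counting error only. Transcripts were pooled over wells, plates and conditions, so the intervals hold no spread between plates. They were not adjusted for the number of members. The share of all genes that would stand higher or lower was not computed, so whether these counts are unusual is not known. For the leading enterocyte-like genes the 2 levels could not be separated: Cyp3a11 had 100 CPM in enteroendocrine-like and 69.9 CPM in goblet-like wells (ratio 1.44, interval 0.895 to 2.45), Cyp2c29 99.6 and 93.3 CPM (1.07, 0.706 to 1.69), and Gstm1 181 and 183 CPM (0.992, 0.737 to 1.36). Those enteroendocrine-like values amount to 0.727%, 0.896% and 1.45% of the enterocyte-like ones. Whether they come from free RNA or from the cells themselves was not tested.

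A smaller set stood clear of the goblet-like level in enteroendocrine-like wells. Adh1 had 1254 CPM there and 73.8 CPM in goblet-like wells, a ratio of 17.0 (interval 10.9 to 28.2). After thinning every cell to 2000 transcripts, an Adh1 transcript was found in 68.2% and 62.9% of enteroendocrine-like wells of Gcg plates 1 and 2, against 6.67% and 14.3% of goblet-like wells. Without thinning these shares were 84.0% and 84.1%, against 73.3% and 42.9%. Cyp4b1 had 975 transcripts in enteroendocrine-like wells and 0 in goblet-like wells, and Gstz1 and Fmo1, with 480 and 154, were also at 0 there. Cyp2c65, an intestinal P450 of the Cyp2c group, stood at 328 and 97.1 CPM (ratio 3.38, 2.28 to 5.24), Cyp4f14, which hydroxylates leukotrienes and fatty acids, at 193 and 27.2 CPM (7.11, 3.43 to 17.8), and Gsto1 at 303 and 97.1 CPM (3.12, 2.10 to 4.84). Some members were instead a feature of the goblet-like wells. Gsta4, which detoxifies lipid aldehydes, had 10.2 CPM in enteroendocrine-like and 812 CPM in goblet-like wells, and Cyp51 had 121 and 575 CPM.

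The 3 reporter lines were then compared without BMP4. Over all kept wells, 38 of 67 tested members differed between the Gcg and the Tac1 line (31 higher, 7 lower in Gcg), against 16.4% of the 9168 genes tested (8.79% higher, 7.66% lower). Between the Gcg and the Gip line 31 differed (30 higher, 1 lower in Gcg, against 5.18% of genes, 3.12% higher and 2.06% lower), and between the Gip and the Tac1 line 14 (2 higher, 12 lower in Gip, against 6.99%, 3.25% higher and 3.74% lower). The untreated Gcg wells included 9 and 6 enterocyte-like wells on plates 1 and 2, while the untreated Gip and Tac1 wells included none. In such sums, fewer cells of a type and less RNA per cell cannot be told apart. The files of the Tac1 line and those of the other lines were also made differently, which cannot be told apart from the line, and the Gip line has 1 plate.

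Restricting the comparison to enteroendocrine-like wells left fewer calls between Gcg and both other lines, and for Gcg over Tac1 more of them were lower than higher. Of 51 members tested, 25 then differed between the Gcg and Tac1 lines, 10 higher and 15 lower in Gcg, against 19.9% of the 8866 genes tested (9.26% higher, 10.7% lower). Between Gip and Tac1 the count was 14 (3 higher, 11 lower in Gip, against 11.8%, 5.32% higher and 6.52% lower), and between Gcg and Gip 13 (11 higher, 2 lower in Gcg, against 6.15%, 2.98% higher and 3.17% lower). The log2 difference of Cyp3a13 for Gcg over Tac1 was 1.96 ± 0.44 over all wells and -2.28 ± 0.36 in enteroendocrine-like wells, and that of Ces2a was 3.74 ± 0.47 and -1.54 ± 0.39.

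Gstt1, a theta class transferase that acts on small halogenated compounds, was the mark of the Tac1 line without BMP4. In untreated enteroendocrine-like wells it had 41.3 and 15.4 CPM on the Gcg plates and 247 CPM on the Gip plate, against 3399 and 3334 CPM on the Tac1 plates. The log2 difference was -6.97 ± 0.42 for Gcg over Tac1 and -3.74 ± 0.46 for Gip over Tac1, and both passed. With all conditions pooled and cells thinned to 2000 transcripts, a Gstt1 transcript was found in 2.79% and 1.32% of enteroendocrine-like wells of the Gcg plates and in 21.8% of those of the Gip plate, against 83.7% and 75.8% on Tac1 plates 1 and 2. On the Gcg plates its level of 21.0 CPM was indistinguishable from the 23.3 CPM of goblet-like wells. In untreated enteroendocrine-like wells Gstk1, a kappa class enzyme of mitochondria and peroxisomes, had 7.51 and 1.71 CPM on the Gcg plates and 3.89 CPM on the Gip plate, against 329 and 398 CPM on the Tac1 plates (-6.29 ± 0.45 for Gcg over Tac1). In these untreated wells Fmo2 had 0 transcripts on the Gcg and Gip plates, against 66 on the Tac1 plates, at least 44.2-fold lower in Gcg and at least 20.3-fold lower in Gip. Cyp2s1, a P450 of epithelial surfaces, had 3.76 and 13.7 CPM on the Gcg plates and 5.83 CPM on the Gip plate, against 186 and 259 CPM on the Tac1 plates (-4.60 ± 0.46 for Gcg over Tac1). For these 4 genes neither Gcg nor Gip values without BMP4 overlapped those of the Tac1 plates. Over all kept wells, Tac1 4 day plates 1 and 2 had 7 and 27 transcripts of Gstt1 and 3 and 7 of Gstk1. Fmo2 had 0 and 1 there, and Cyp2s1 2 and 8, in 98166 and 148618 kept transcripts. The Tac1 24 h plate had 582, 45, 31 and 7 of the 4 genes in this order, in 192705 kept transcripts.

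**Figure D4:**
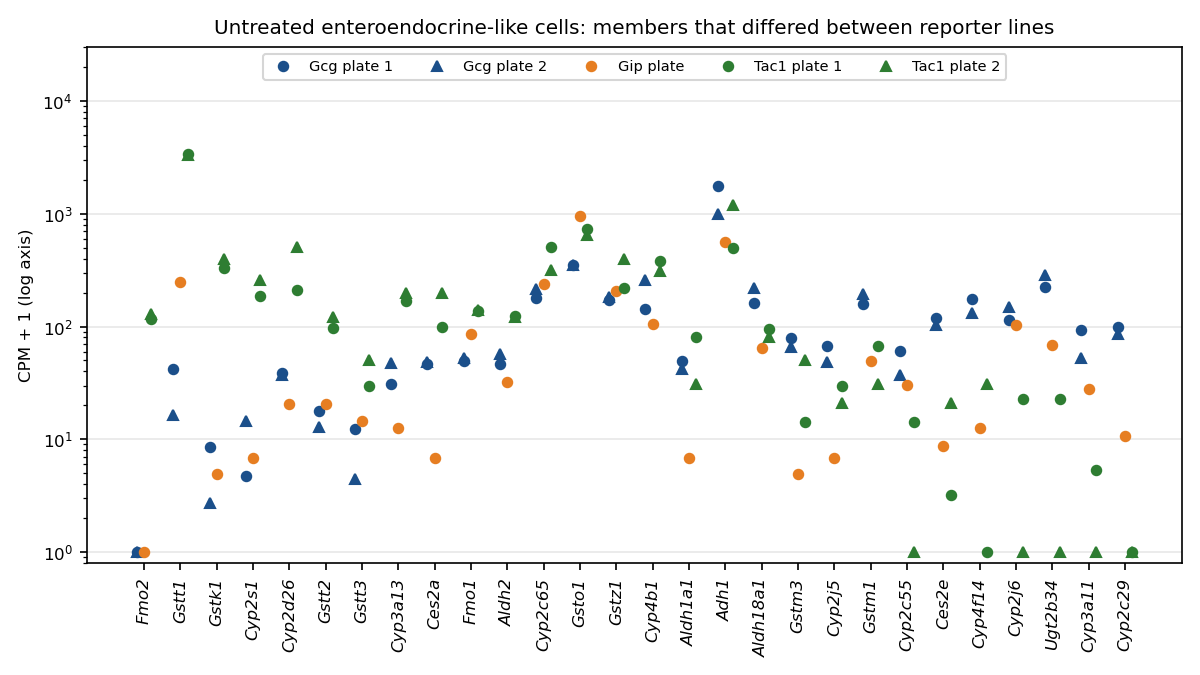
Level (CPM plus 1, log axis) of members that differed between lines in untreated enteroendocrine-like wells, with 1 point for each plate of the Gcg, Gip and Tac1 lines. Gstt1, Gstk1, Fmo2 and Cyp2s1 lie highest on the Tac1 plates, and Ugt2b34, Cyp4f14 and Cyp2c29 on the Gcg plates.

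A second set was higher in the Gcg line. Ugt2b34 had 224 and 286 CPM on the Gcg plates, against 68.0 CPM on the Gip plate and 21.9 and 0 CPM on the Tac1 plates (3.74 ± 0.43 for Gcg over Tac1 and 1.79 ± 0.38 for Gcg over Gip). Cyp4f14 had 173 and 132 CPM, against 11.7 CPM and against 0 and 29.9 CPM (4.60 ± 0.63 and 3.57 ± 0.58). Cyp2c29 had 102 transcripts on the Gcg plates and 0 on the Tac1 plates, at least 16.9-fold higher, and Ces2e had 118 and 103 CPM, against 2.19 and 19.9 CPM on the Tac1 plates (4.16 ± 0.64). The enterocyte-like wells, which are rich in Ugt2b34, Cyp2c29 and Ces2e, lay on the Gcg plates, and on these plates the 3 genes could not be separated from their goblet-like level. The part of free RNA in these line differences was not tested, and Cyp4f14 stood above that level.

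Gsto1 was lower in the Gcg line than in both others. It had 351 and 349 CPM on the Gcg plates, against 947 CPM on the Gip plate and 732 and 647 CPM on the Tac1 plates, and its log2 difference was -1.54 ± 0.30 for Gcg over Gip and -1.07 ± 0.27 for Gcg over Tac1. Its Gip plate was the highest of the 5, but the difference of 0.47 ± 0.31 for Gip over Tac1 did not pass (adjusted p = 0.38). Adh1 had 1741 and 997 CPM on the Gcg plates, against 560 CPM on the Gip plate (1.19 ± 0.38 for Gcg over Gip) and 500 and 1204 CPM on the Tac1 plates. The Tac1 plates differed from each other by more than the Gip plate differed from the lower of them. Fmo1 had 48.8 and 51.3 CPM in Gcg wells and 85.5 CPM in Gip wells, against 136 and 139 CPM in Tac1 wells, and was lower in Gcg than in Tac1 (-1.53 ± 0.36). Aldh18a1 had 160 and 221 CPM in Gcg wells, against 64.1 CPM in Gip wells and 94.3 and 79.6 CPM in Tac1 wells (0.98 ± 0.32 for Gcg over Tac1).

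After 4 days of BMP4, few members changed when all kept wells were summed. Of 62 tested, 4 passed against none, Cyp2j5 as higher and Fmo1, Gstz1 and Aldh1b1 as lower, against 3.33% of the 8308 genes tested (edgeR, plate as a block). Each of the 4 changed in the same direction on 5 of 5 plates. Fmo1 fell by 2.08 ± 0.32 on the log2 scale (adjusted p = 0.0033), Gstz1 by 1.10 ± 0.24 (adjusted p = 0.017) and Aldh1b1, a mitochondrial aldehyde dehydrogenase, by 1.13 ± 0.26 (adjusted p = 0.024). Cyp2j5, an epoxygenase of arachidonic acid, rose by 2.36 ± 0.41 (adjusted p = 0.0049). Without Tac1 plate 1, Fmo1 alone of the 4 passed (-1.85), and without the Gip plate Fmo1 and Cyp2j5 did. At 24 h against none 0 of 62 passed, with 2 at an unadjusted p under 0.05 and 0 by DESeq2, beside 0.0963% of all genes. Between 4 days and 24 h only Fmo1 passed (-2.21 ± 0.33, adjusted p = 0.015), beside 0.397% of genes.

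The share of enterocyte-like wells moved between conditions without a common direction, at 14.1%, 5.71% and 21.1% of kept wells on Gcg plate 1 and 8.0%, 19.3% and 8.33% on Gcg plate 2 for none, 24 h and 4 days. Members made up 3.0%, 0.855% and 4.09% of all transcripts on Gcg plate 1 in these conditions, and 1.83%, 2.85% and 0.721% on Gcg plate 2. Both shares were highest at 4 days on Gcg plate 1 and at 24 h on Gcg plate 2. At 4 days on Gcg plate 2 the members' share was below that without BMP4 although the shares of wells were close, and this sum held 2 enterocyte-like wells. Within enterocyte-like wells the members' share was 10.2% at 4 days and 8.28% without BMP4 on Gcg plate 1, and 9.46% at 24 h and 12.3% without BMP4 on Gcg plate 2. These contrasts rest on 1 plate each and have no replicate.

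In enteroendocrine-like wells alone, 14 of 49 tested members passed at 4 days against none, 9 higher and 5 lower, against 5.11% of the 8004 genes tested (3.41% higher, 1.7% lower). This comparison rests on 4 plates at 4 days, since Tac1 plate 2 had too few enteroendocrine-like wells. Fmo1 fell on each of them, to 10.9 CPM at 4 days, against 48.8 CPM without BMP4 on Gcg plate 1, to 14.1 against 51.3 CPM on Gcg plate 2, to 22.3 against 85.5 CPM on the Gip plate and to 6.54 against 136 CPM on Tac1 plate 1 (-2.09 ± 0.32). Its values at 24 h, 60.4, 51.1, 63.7 and 150 CPM on these plates, were close to the untreated ones. Of the single-condition Tac1 plates, those of 4 days had 0 Fmo1 transcripts and that of 24 h had 73.5 CPM. Gstz1 also fell, to 79.1, 112, 105 and 85.0 CPM at 4 days, against 169, 181, 204 and 219 CPM without BMP4 on the same 4 plates (-0.90 ± 0.20), and no 4 day value reached an untreated one. Aldh1b1 had 23.3, 35.1, 18.8 and 52.3 CPM at 4 days, against 62.0, 51.3, 56.4 and 89.9 CPM (-1.06 ± 0.27).

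The 9 members that passed as higher in enteroendocrine-like wells were 6 Cyp genes and 1 gene each of the Fmo, Ces and Ugt families. Cyp2c65 had 450, 408, 921 and 608 CPM at 4 days, against 178, 214, 235 and 509 CPM without BMP4 on Gcg plates 1 and 2, the Gip plate and Tac1 plate 1 (1.27 ± 0.23). Fmo5 had 57.4, 35.1, 57.6 and 26.2 CPM, against 7.51, 5.13, 5.83 and 8.77 CPM (2.95 ± 0.46). Cyp3a11 had 180, 105, 102 and 45.8 CPM, against 92.0, 51.3, 27.2 and 4.39 CPM (1.53 ± 0.25), and the further Tac1 plates had 52.6 and 72.6 CPM at 4 days and 0 at 24 h. On all 4 plates these genes were higher at 4 days than without BMP4. Cyp2j5 rose on the Gcg and Gip plates, with 118, 155 and 129 CPM against 65.7, 47.9 and 5.83 CPM, and stood at 19.6 against 28.5 CPM on Tac1 plate 1 (1.79 ± 0.39 over all plates). Without the cluster led by Kcnq1ot1, a setting added after seeing the data, Cyp2j5 (1.09) and Cyp2c29 (0.83) did not pass. The others that passed as higher were Cyp2c55 (1.71 ± 0.48), Ces2e (1.21 ± 0.23), Ugt2b34 (1.18 ± 0.23), Cyp4v3 (1.16 ± 0.33) and Cyp2c29 (1.13 ± 0.32). Ugt2b34 and Cyp4v3 were higher at 4 days on all 4 plates. Cyp2c55 was lower on Gcg plate 2 (-2.20, log2 change of CPM plus 1) and highest in its rise on the Gip plate (3.25). On Tac1 plate 1 Ces2e was lower (-1.67) and Cyp2c29 did not change (0). Of these 9 genes, only Cyp2c65 and Cyp2c55 stood above the goblet-like level on the Gcg plates, and the part of free RNA in the rise of the others was not tested. Against 24 h, 9 of 49 members passed at 4 days (1.91% of genes), among them Fmo1 (-2.11 ± 0.32), Gstt1 (-1.54 ± 0.28), Gstk1 (-1.77 ± 0.42) and Fmo5 (1.87 ± 0.40). At 24 h against none 0 of 49 passed, with 5 at an unadjusted p under 0.05 and 0.262% of all genes called.

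**Figure D5:**
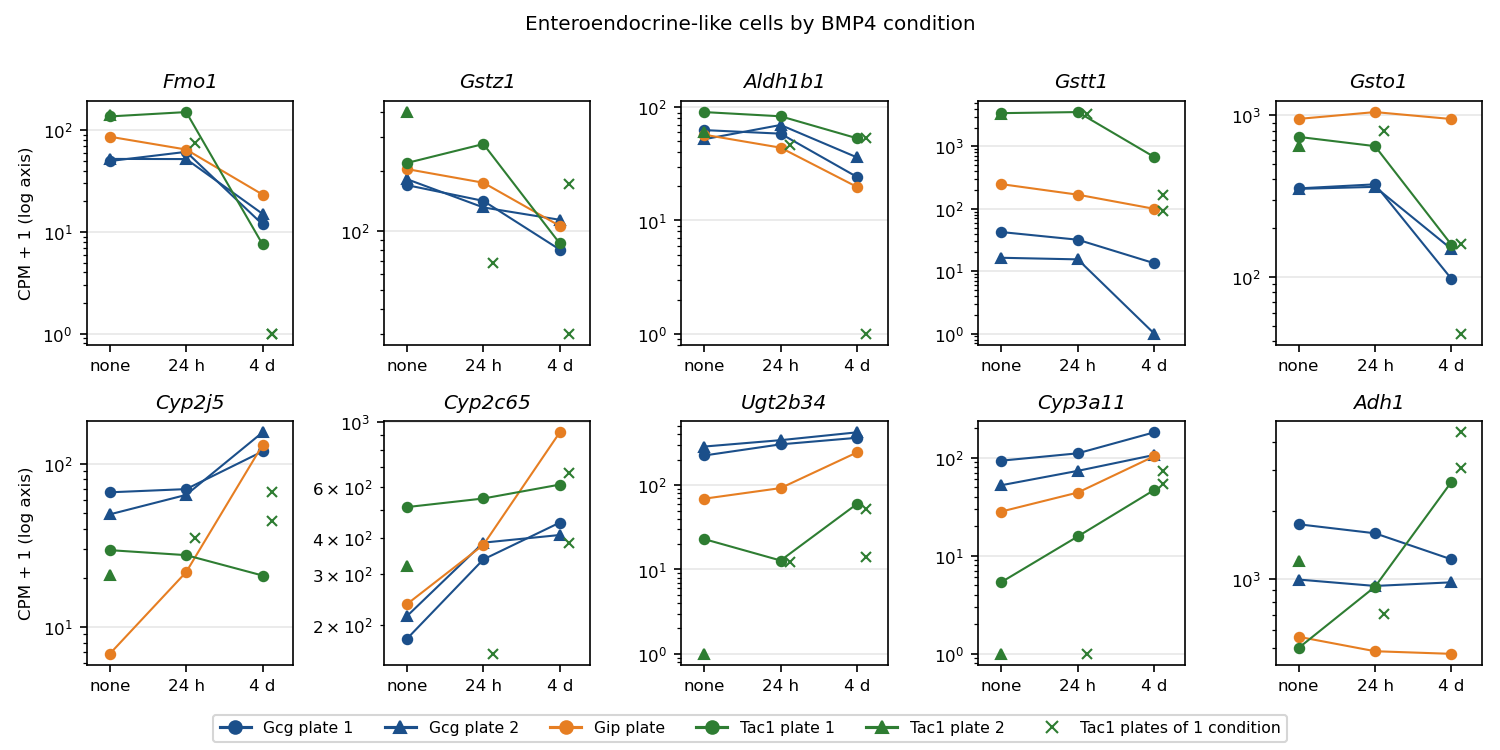
Level (CPM) of 10 members without BMP4, at 24 h and at 4 days in enteroendocrine-like wells, with 1 line for each plate that carried several conditions and crosses for the Tac1 plates of a single condition. Fmo1 is lower at 4 days than without BMP4 on all 4 plates that had both, and Adh1 rises on Tac1 plate 1 to 2669 CPM at 4 days.

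Within the Tac1 line members passed in both directions. Over all kept wells 4 members passed at 4 days against none (2.01% of genes): Gsto1, Gstt1 and Cyp4b1 as lower and Cyp2j5 as higher. The median log2 change of the 62 tested members was 0.28, and 0 members passed without either Tac1 plate that carried all conditions. In enteroendocrine-like wells 9 members passed, 2 higher and 7 lower, against 3.79% of genes, with a median over the 49 tested of 0. Only Tac1 plate 1 had both conditions in that fit, so its errors and p-values for this line hold no spread between Tac1 plates. On Tac1 plate 1, in the order none, 24 h and 4 days, Gstt1 had 3399, 3536 and 674 CPM (-2.32 ± 0.27), with 3244 CPM on the 24 h plate and 92.1 and 167 CPM on the 4 day plates. In this line every 4 day value of Gstt1 lay below every value without BMP4 and at 24 h. Gsto1 had 732, 642 and 157 CPM on Tac1 plate 1 (-2.21 ± 0.34), 797 CPM on the 24 h plate and 158 and 43.6 CPM on the 4 day plates. Cyp4b1 had 379, 303 and 91.6 CPM (-2.04 ± 0.39), and 192 CPM and 0 and 123 CPM on the further plates. Cyp3a13 had 0 transcripts at 4 days against 76 without BMP4, at least 8.49-fold lower, and 238 CPM at 24 h, although the further 4 day plates held 52.6 and 21.8 CPM. Adh1 rose, with 500, 927 and 2669 CPM in the same order of conditions (2.43 ± 0.28), 706 CPM on the 24 h plate and 3066 and 4400 CPM on the 4 day plates. On Tac1 plate 2, 9 enteroendocrine-like wells at 4 days, too few for the fit, had 2239 CPM, against 1204 CPM without BMP4. Over all kept wells that plate had 1446 CPM at 4 days, against 1180 CPM without BMP4, and the Adh1 change in the Tac1 line was 1.46 ± 0.41 and did not pass (adjusted p = 0.14).

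Other features of the Tac1 wells moved with these values. Endocrine markers summed to 91100, 90126 and 55352 CPM in this order in enteroendocrine-like wells of Tac1 plate 1, and the changes fitted for the line in these wells rest on that plate. Unnamed wells were 12 of 41 kept wells at 4 days on Tac1 plate 1 and 7 of 16 on Tac1 plate 2. The enteroendocrine-like wells also came from different clusters. A cluster with Dusp2, Enpp2 and Trpa1 as top genes held 37 wells of the 24 h plate, and 0 and 3 of the 4 day plates. Another, with Cwh43, Serpina1c and Hspb1 as top genes, held 0 of the 24 h plate, and 19 and 36 of the 4 day plates. The part of this shift in the changes of Gstt1, Gsto1 and Adh1 was not tested. Cyp2j5, which passed as higher in the Tac1 line over all kept wells (2.99 ± 0.48, adjusted p = 0.017), had a log2 change of -0.52 in enteroendocrine-like wells, and the part of the unnamed wells in its rise was not tested.

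Within the Gcg line 15 members passed in enteroendocrine-like wells, 12 higher and 3 lower, against 5.93% of genes, while over all kept wells 0 passed, with 6 at an unadjusted p under 0.05, against 0.277% of genes. Gsto1 fell here too, to 96.2 and 148 CPM at 4 days, against 351 and 349 CPM without BMP4 on plates 1 and 2 (-1.51 ± 0.23), whereas the Gip plate had 945 CPM at 4 days, against 947 CPM without BMP4. Cyp4b1 rose to 354 and 436 CPM, against 143 and 258 CPM (1.19 ± 0.19), the opposite of the Tac1 line. Adh1 stood at 1222 and 970 CPM, against 1741 and 997 CPM, and did not pass. In enteroendocrine-like wells the Tac1 effect came from Tac1 plate 1 alone, so a test against it holds no spread between Tac1 plates. The test of the difference between the Gcg and the Tac1 effect passed for 4 members of 49, against 1.32% of genes: Adh1 (-2.58 ± 0.33), Cyp4b1 (3.23 ± 0.42), Ces2a (4.03 ± 0.86) and Cyp3a13, whose Tac1 value at 4 days is 0. Over all kept wells it passed for 0 of 62, with 8 at an unadjusted p under 0.05 and 1 by DESeq2, beside 0.0% of genes.

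Genes that work beside the families were looked up in 6 fixed lists. Between enterocyte-like and enteroendocrine-like wells, all 4 tested electron partners of the P450 enzymes were higher, with Por, the reductase that feeds them electrons, at 1.74 ± 0.21 and Cyb5b, a cytochrome b5, at 2.13 ± 0.22. Of 17 tested sensors 11 were higher and 1 lower, among them Nr1i3, the receptor CAR (6.42 ± 1.08), Nr1h4, the bile acid receptor (1.78 ± 0.25), Hnf4g (2.76 ± 0.21) and, by a smaller margin, Nr1i2, the receptor PXR (0.88 ± 0.29). Of 16 other conjugating enzymes 13 were higher and 2 lower, with the microsomal transferase Mgst1 at 7.53 ± 0.32. Of 11 glutathione genes 10 were higher, of 6 efflux pumps 4 were higher and 2 lower, and of 8 retinoid genes 6 were higher and 1 lower. These genes took part in the clustering that made the classes, so the counts describe the classes and test nothing. At 4 days of BMP4 against none, 1 gene of the 6 lists passed over all kept wells, the epithelial glutathione peroxidase Gpx2 (-1.93, adjusted p = 0.0049). In enteroendocrine-like wells 6 passed: the epoxide hydrolase Ephx1 (1.90 ± 0.36), the microsomal transferase Mgst2 (1.18 ± 0.26) and the efflux pumps Abcg2 (1.83 ± 0.47) and Abcb1a (0.62 ± 0.17) as higher, and Gpx2 (-2.02 ± 0.31) and the sulfotransferase Sult1d1 (-0.59 ± 0.16) as lower.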

How the data were processed

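Single reporter-positive cells went through SORT-seq, a CEL-seq2 variant that tags transcripts with molecular identifiers at the 3' end, per the labels' protocols. The submitters' processing notes name BWA (0.6.2-r126) and the mm10 build. How reads were assigned to genes, and whether by strand, is not given in the sources used here. Deposited values are expected counts: the authors' transcript numbers per gene and well, corrected for repeated hits of an identifier. They were rounded to whole numbers after summing. Files of the Tac1 line hold 2 decimals and those of the Gcg and Gip lines full precision. Only the 16115 genes listed in both kinds entered the sums and could be tested.

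Cells of at least 2000 transcripts were kept and summed per plate and condition (at least 10 cells) or per plate and class (at least 5 cells). Kept transcripts ranged from 98166 to 2874187 per plate. Genes were filtered with filterByExpr, TMM normalised and tested with edgeR 4.0.16 (quasi-likelihood, R 4.3.3), with plate as a block except between lines, where plates are nested. P-values were adjusted by Benjamini-Hochberg over all genes tested, with a threshold of 0.05. Errors beside log2 values are standard errors of the fit. Levels are CPM, scaled by the total of each sum without TMM factors. Intervals of ratios are exact binomial, and they and the floor of 3 transcripts cover counting error only. Conditions share a plate by design, and residuals of sums from 1 plate correlated at 0.362 to 0.729. In a fit of all sums with both line and condition as terms, the consensus correlation of sums from 1 plate was -0.067.

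Cells were clustered with scanpy 1.11.5 and leidenalg 0.10.2 at resolution 1 on 20 components of 1500 variable genes, with 15 neighbours, leaving out members, hormones and BMP targets. A cluster took a name from at least 3 fixed markers among its top 20 genes. None of the enteroendocrine clusters met this rule. All of them were named in a second pass, chosen after seeing the data. It asked for at least 3 endocrine markers among the top 20 genes over the enterocyte-like and goblet-like wells. Names rebuilt this way may differ from the study's own. Doublets were not called, since each well received 1 sorted cell. Named genes are members with an adjusted p under 0.05 in any comparison, the 12 most abundant members, and per family the tested member with the smallest p at 4 days against none. The members, the lists and the tests were chosen with earlier results of these data known.

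The fits were tested on simulated counts, drawn with the same assumed dispersion for every gene and no plate effect. The shares recovered hold for that setting and may differ from the power of the fits on the real counts. At 4 days against none, 87% of genes changed 4-fold and 20% of genes changed 2-fold were recovered (8308 genes). Between the Gcg and Tac1 lines these shares were 45% and 3% (9168 genes), and between the classes 39% and 1% (9344 genes). DESeq2 1.42.0 and limma 3.58.1 were used in alternatives. Promoter sequences are RefSeq's (GRCm38.p6), and gene positions are those of GENCODE M21, which matched 171 members.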

Additional observations from a re-analysis of the deposited data

Results flagged for a closer look

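On Tac1 plate 1, the fall of Fmo1 at 4 days of BMP4 was -3.64 on the log2 scale over all kept wells, far from the other 4 plates, which lay between -2.09 and -1.79. The rule that flagged this gap is met by chance in about 1 in 20 groups of this size, and the Fmo1 level on this plate at 4 days rests on very few transcripts.

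In enteroendocrine-like wells, the effect of 4 days of BMP4 differed between the Gcg and the Tac1 line by the test of the difference itself for 4 members. The Gcg effect minus the Tac1 effect was -2.58 for Adh1, 3.23 for Cyp4b1, 4.03 for Ces2a and 10.4 for Cyp3a13, on the log2 scale. The Cyp3a13 value depends on the prior count of the fit, because 0 transcripts were counted at 4 days on Tac1 plate 1, and for Ces2a that plate had 2 transcripts at 4 days and 45 without BMP4. The Tac1 effect rests on 1 plate in all 4 cases, so the test holds no spread between Tac1 plates.

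A pair of members lay outside the tested genes because only files of the Gcg and Gip lines list them, and both had transcripts in kept wells: Ugt2a3, a glucuronosyltransferase of the Ugt2 group, with 173 and Cyp2j9, a neighbour of Cyp2j5, with 51.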

How the results depend on the processing

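Between classes, 47 to 68 members passed under the alternatives, against 63. Of the 63, 50 passed in every alternative that tested them. Some alternatives tested fewer members, and at a cluster resolution of 2 the filter left 64, of which 47 passed. With a cluster resolution of 2 the call of Aldh18a1 was lost and its sign changed (0.11), and the calls of Fmo1 and Aldh7a1 were lost. For the class counts, leaving out a plate left 1 plate and so no test.

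Line counts depended on the cells. For Gcg over Tac1, 38 members passed over all kept cells, 25 in enteroendocrine-like cells only, 23 in these without the cluster led by Kcnq1ot1 (added after seeing the data) and 24 without enterocyte-like cells. For Gcg over Gip the counts were 31, 13, 12 and 12. For Gip over Tac1, DESeq2 gave 9 instead of 14. The fit with replicate number as a block gave 40 for Gcg over Tac1 and changed no count by over 1.5 times. Leaving out 1 plate at a time gave 25 to 38 for Gcg over Tac1, 20 to 36 for Gcg over Gip (the lowest of each without Gcg plate 1) and 10 to 15 for Gip over Tac1. For Gcg over Tac1 the sign reversed in enteroendocrine-like cells only, in these without the Kcnq1ot1 cluster and without enterocyte-like cells for Aldh1a1 (-0.64, -0.78 and -0.63), Ces2a (-1.54, -1.72 and -1.38), Fmo5 (-1.47, -2.19 and -1.53), Cyp3a13 (-2.28, -2.43 and -2.07), Ces1d (-0.50, -0.45 and -0.56) and Cyp4v3 (-0.64, -0.55 and -0.57). For Gcg over Gip it reversed for Cyp2c65 (-0.37, -0.36 and -0.36) and, without the Kcnq1ot1 cluster, for Fmo5 (-0.72). By construction these settings leave out the enterocyte-like cells.

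At 4 days against none, 4 members passed over all kept cells, 14 in enteroendocrine-like cells only, 12 in these without the Kcnq1ot1 cluster, 15 without enterocyte-like cells, 18 with no filter on low counts and 0 with no replicate block. At 4 days against 24 h the counts were 1, 9, 4, 9, 11 and 0, with 3 by DESeq2 and 4 when cells of at least 1000 transcripts were kept. Leaving out 1 plate at a time gave 1 to 6 at 4 days against none (1 without Tac1 plate 1, 2 without the Gip plate), 0 to 9 at 4 days against 24 h (0 without the Gip plate or Tac1 plate 1, 9 without Gcg plate 2) and 0 to 0 at 24 h. In the Gcg line 0 passed, with 15 in enteroendocrine-like cells only, 2 with no filter and 0 to 10 without 1 plate (10 without Gcg plate 1). In the Tac1 line 4 passed, with 9 in enteroendocrine-like cells only, 16 with no filter and 0 to 14 without 1 plate (0 without either Tac1 plate, 14 without Gcg plate 1). There the sign of Cyp2j5 changed in enteroendocrine-like cells only (-0.52). For the difference of the lines the count was 0, with 1 by DESeq2, 4 in enteroendocrine-like cells only, 6 with no filter and 0 to 8 without 1 plate (8 without Gcg plate 1). Apart from these settings the cause was not tested. Depth limits the Tac1 plates most, and genes of a few transcripts per sum cannot be compared there.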

Other observations

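A few wells outside the class comparison also carried many enzyme transcripts. The 2 enterocyte-like wells of the Gip plate had member shares of 1.78% and 4.07% of their transcripts, and the enterocyte-like well on each of the Tac1 4 day plates 3.66% and 12.8%. The enteroendocrine-like well with the highest share, 3.23%, lay on the Gip plate, where the median was 0.404%. The unnamed wells lay at the other end, with medians of 0.224% and 0.225% on Tac1 plates 1 and 2, against 0.765% and 0.727% in enteroendocrine-like wells of these plates.

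The transcripts were concentrated in few genes in each class. In enterocyte-like wells the 5 most abundant members held 53.4% and 58.3% of all member transcripts on Gcg plates 1 and 2, and Cyp3a11, Gstm1, Cyp2c29 and Ces2a were among them on both plates. In enteroendocrine-like wells the 5 most abundant held 47.4% and 45.7% on the same plates, with Adh1 first on both. On Tac1 plates 1 and 2 they held 63.3% and 62.8%, with Gstt1 first and Adh1 second. On the Gip plate they held 49.5%, with Gsto1 first.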
